A study of Homo sapiens with 6 samples.

Results

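TIFAB, PELI1 and the adaptors around TRAF6 are genes of the innate immune route that leads from Toll-like and interleukin-1 receptors to the ubiquitin ligase TRAF6. The 10 genes TIFAB, TIFA, MYD88, IRAK1, IRAK3, IRAK4, TRAF6, PELI1, PELI2 and SLC15A4 were taken by name. The set was built around TIFAB and PELI1, which were selected on their differences between these same arrays. Of the 10 genes 9 have at least 1 probe set that the platform annotation gives to them alone, among 19775 genes measured in this way. IRAK4 has none in the annotation used here and was not analysed here. The groups were MV4;11 cells kept for 3 h in 25 nM cortistatin A (3 arrays) and MV4;11 cells kept for 3 h in the solvent DMSO (3 arrays). MV4;11 is a human line of acute myeloid leukaemia with an MLL-AF4 rearrangement, which both groups therefore share, and the results cover that line only. The drug, a steroidal alkaloid from a marine sponge, inhibits the Mediator kinases CDK8 and CDK19. Whether the 3 wells of a group came from separate cultures is not stated in the labels, so the errors cover the spread between wells, which may be technical.

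An activated Toll-like or interleukin-1 receptor binds the adaptor MYD88, on which the kinases IRAK4 and IRAK1 gather. IRAK1 then engages TRAF6, which builds ubiquitin chains that activate the TAK1 and IKK kinases and through them NF-kB. TIFA reaches TRAF6 by another way, after the kinase ALPK1 has sensed a bacterial sugar, and TIFAB is a relative of TIFA known to dampen TRAF6 signalling in blood stem and progenitor cells. In myeloid leukaemia and myelodysplastic syndromes this route has been studied because TIFAB lies in a stretch of chromosome 5 that is often deleted there.

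The deposited values are log2 levels per probe set from RMA, a method that subtracts background, aligns the arrays and combines the probes of each probe set. Each gene is represented by its brightest probe set, by the mean of all 6 arrays, and a probe set was called dim when its mean did not exceed 3.74, the median over the probe sets of the array. Levels of different probe sets cannot be set against each other, so the levels below were compared only between arrays. In bulk RNA, fewer cells that hold a transcript and less transcript per cell cannot be told apart. Across genes, 2 arrays correlated at r = 0.9975 to 0.9979 among the cortistatin A arrays, 0.9975 to 0.9977 among the DMSO arrays and 0.9969 to 0.9974 between the groups. Of 10 myeloid and leukaemia markers 8 were measured and all 8 were above 3.74. Among them KIT rose by 0.54 (limma adjusted p = 0.0227) and FLT3 stood at -0.20 (limma adjusted p = 0.196). Also above 3.74 were 2 of 5 measured T cell markers, 3 of 4 B cell markers, 2 of 2 erythroid markers and 2 of 5 epithelial markers, and the others were dim. In these 4 lists no gene passed, and the 2 with the smallest p of each were CD3E (-0.17) and CD2 (0.10), CD79B (0.12) and CD79A (0.04), KRT18 (-0.14) and KRT19 (-0.24), and ALAS2 (0.09) and HBB (-0.01). The drug targets CDK19 (-0.22) and CDK8 (-0.05) and the housekeeping genes TFRC (0.16) and YWHAZ (-0.06) did not pass either. The 3' minus 5' log2 signal of the beta-actin control, which is larger when labelled transcripts are shorter, was 1.88, 1.89 and 2.08 in cortistatin A and 1.77, 1.69 and 1.79 in DMSO. The groups did not overlap in this control signal, and its part in the results was not tested. The mean of the 5 human control transcripts, tried as a covariate, ran from -0.23 to -0.03 and did overlap between the groups. It lay far from the beta-actin signal, so the fit with it cannot be taken as a correction for shorter transcripts.

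TIFAB and SLC15A4 rose and PELI1 fell after 3 h of cortistatin A, while the levels of TIFA, MYD88 and IRAK1 overlapped between the groups. In the limma fit over all 19775 genes, 3 of the 9 measured genes passed an adjusted p under 0.05 (2 higher and 1 lower), beside 0.582% of all genes (0.445% higher and 0.137% lower). The 10 genes were put together with results of this contrast known. Nothing is read from that share, and their differences are given as a description, with 95% intervals and without p-values. Whether a member passed the threshold is stated only as part of that description. The groups did not overlap for 6 of the 9 genes, beside 19.4% of all genes. The median log2 difference of the 9 genes was -0.04, against 0.0065 for all genes. With any 1 array left out, limma called 0 of the 9 genes (4 to 6 at an unadjusted p under 0.05, which 6 passed on all 6 arrays beside 12.6% of all genes) except without DMSO replicate 3, where it called 1, TIFAB. The counts over all genes went the same way, with 115 genes called on 6 arrays (88 higher and 27 lower) and 0 to 4 on 5 arrays. Centring the arrays on the median level of the housekeeping list moved the median of all genes by -0.165, since this median was the level of TFRC alone on every array, and the split of the calls was then 119 higher and 3921 lower. No sign of the 9 genes turned there, and relative to that shift their differences are those given here.

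**Figure D1:**
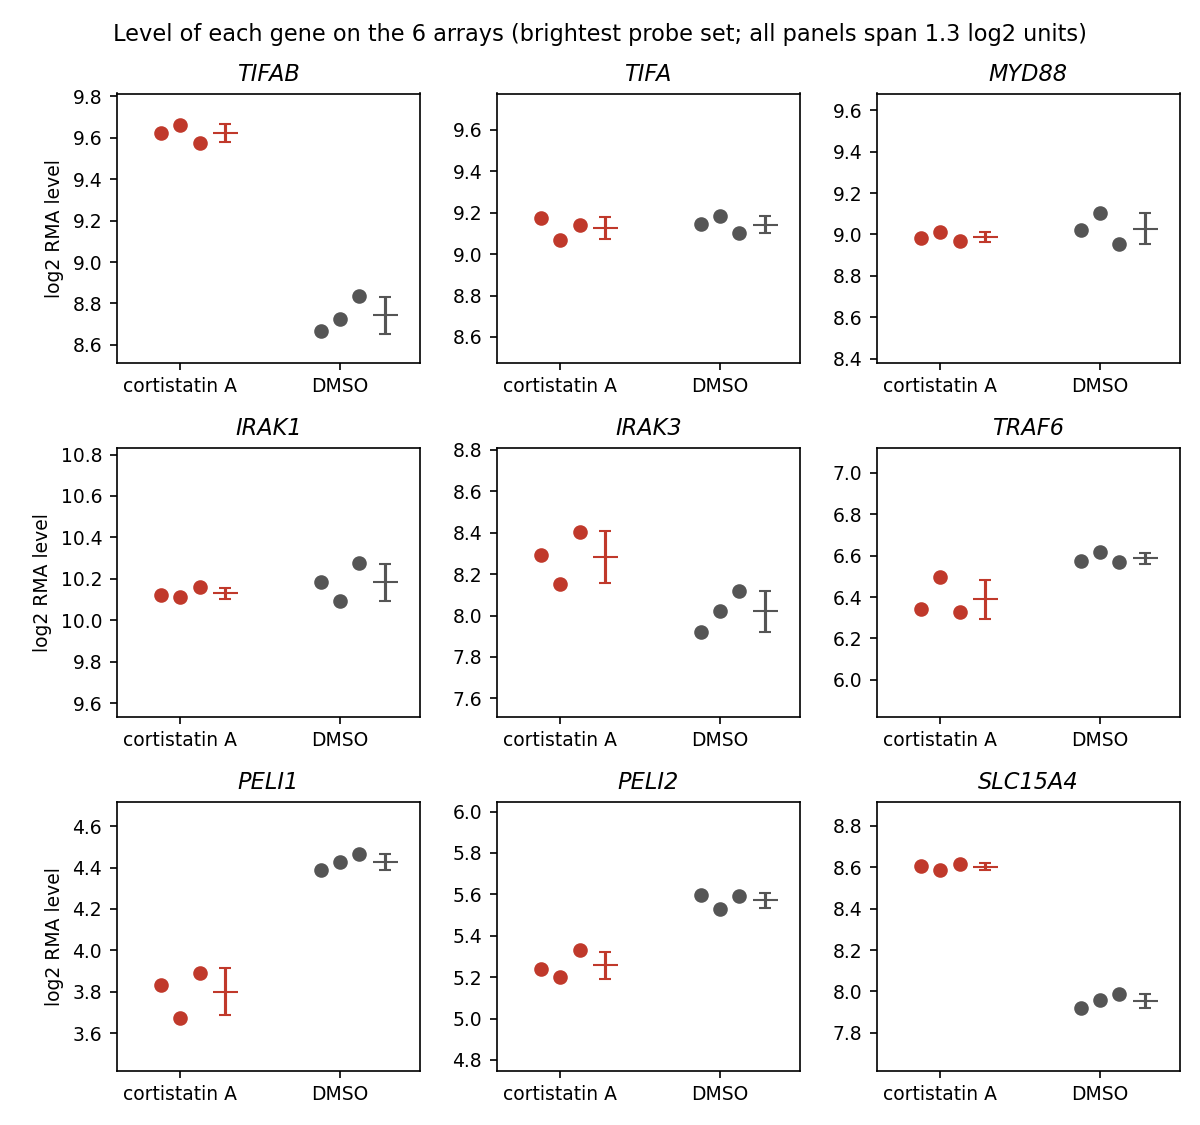
Log2 RMA level (vertical axis) of the 9 measured genes on each array, with the 3 cortistatin A arrays (red) left of the 3 DMSO arrays (grey) and, beside the points, the mean and SD of each group. TIFAB, SLC15A4 and, by a small margin, IRAK3 lie higher on every cortistatin A array than on any DMSO array. PELI1, PELI2 and TRAF6 lie lower on every cortistatin A array than on any DMSO array, while TIFA, MYD88 and IRAK1 overlap.

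TIFAB, the relative of TIFA that restrains TRAF6, had the largest rise of the 9 genes. Its level was 9.63, 9.66 and 9.58 on the cortistatin A arrays and 8.67, 8.72 and 8.84 on the DMSO arrays. The lowest cortistatin A array thus stood above the highest DMSO array. The means were 9.62 ± 0.04 in cortistatin A and 8.74 ± 0.09 in DMSO (SD, n = 3 each), a log2 difference of 0.88 ± 0.06 (limma SE, 95% interval 0.73 to 1.03) or 1.84-fold. TIFAB had the 6th highest difference of all 19775 genes. A second probe set is annotated to both TIFAB and DCANP1, a gene whose RefSeq span overlaps that of TIFAB over 3123 of its 3135 bases, so its signal cannot be given to either gene. That shared probe set read 8.63, 8.58 and 8.70 in cortistatin A and 8.36, 8.43 and 8.41 in DMSO. It also separated the groups, with a smaller log2 difference of 0.24. For TIFAB alone the array therefore offers 1 probe set and no second reading.

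TIFA, the forkhead-associated adaptor that multimerises and then binds TRAF6, was at nearly the same level in both groups. Its level was 9.17, 9.07 and 9.14 in cortistatin A and 9.14, 9.18 and 9.10 in DMSO. The groups overlapped, and the log2 difference was -0.02 ± 0.05 (95% interval -0.14 to 0.11). Its other probe sets gave -0.05 and -0.11, and both also overlapped between the groups. The interval of TIFA leaves out a change of the size seen for TIFAB in either direction. Without cortistatin A replicate 2 or DMSO replicate 2 the small difference of TIFA turned to 0.01 and 0.0049.

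MYD88, the adaptor that links the receptors to the IRAK kinases, was measured by 1 probe set. It read 8.98, 9.01 and 8.97 in cortistatin A and 9.02, 9.11 and 8.96 in DMSO. The groups overlapped, with a log2 difference of -0.04 ± 0.06 (95% interval -0.18 to 0.09). IRAK1, the kinase that carries the signal to TRAF6, read 10.12, 10.11 and 10.16 in cortistatin A and 10.19, 10.09 and 10.27 in DMSO. These also overlapped, and the difference was -0.05 ± 0.06 (95% interval -0.20 to 0.09). The other IRAK1 probe set was, like the first, of the _s_at type, whose probes can match several transcripts. It read 5.08, 4.97 and 4.97 in cortistatin A and 5.12, 5.24 and 5.23 in DMSO. On this second probe set every cortistatin A array was below every DMSO array, and the log2 difference was -0.19. The readings of IRAK1 thus did not match in whether the groups overlapped.

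IRAK3, also called IRAK-M, is a member of the kinase family without catalytic activity that is expressed in monocytes and macrophages and restrains the receptor complex. It read 8.29, 8.15 and 8.40 in cortistatin A and 7.92, 8.02 and 8.12 in DMSO. The groups did not overlap, but by only a small margin between cortistatin A replicate 2 and DMSO replicate 3. The log2 difference of 0.26 ± 0.08 (95% interval 0.06 to 0.46) did not pass the threshold over all genes. Both other probe sets of IRAK3 also separated the groups in the same direction, at 0.18 and, for the dim one, 0.34. With trend and robust variances in the fit IRAK3 passed the threshold at the same difference, a setting that called 762 of all 19775 genes. In the other 16 alternatives IRAK3 did not pass.

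TRAF6, the ubiquitin ligase at which the routes meet, read 6.34, 6.50 and 6.33 in cortistatin A and 6.57, 6.62 and 6.57 in DMSO. All 3 cortistatin A arrays were below the DMSO arrays. The log2 difference of -0.20 ± 0.06 (95% interval -0.35 to -0.05) did not pass the threshold. The other TRAF6 probe set read 5.47, 5.82 and 5.61 in cortistatin A and 5.98, 6.07 and 6.08 in DMSO, a difference of -0.41 (95% interval -0.63 to -0.18 among probe sets). It had the same direction with a larger size, and on both probe sets cortistatin A replicate 2 stood nearest to the DMSO arrays.

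PELI1, a Pellino ubiquitin ligase that binds IRAK1 and marks it with ubiquitin, fell. It read 3.83, 3.67 and 3.89 in cortistatin A and 4.39, 4.43 and 4.47 in DMSO. The means were 3.80 ± 0.11 in cortistatin A and 4.43 ± 0.04 in DMSO (SD, n = 3 each), a log2 difference of -0.63 ± 0.07 (95% interval -0.79 to -0.46) or 1.54-fold. PELI1 was the 6th lowest of all genes by its difference. In cortistatin A its level was close to the median of all probe sets, where RMA compresses differences. Its other probe sets were dim and overlapped between the groups, with differences of -0.18 and -0.01. Averaged over all 3 probe sets the difference was -0.27 and did not pass, and PELI1 also did not pass with the control transcripts' 3' to 5' signal as a covariate (-0.65).

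PELI2, the second Pellino ligase, lay in the same direction as PELI1. It read 5.24, 5.20 and 5.33 in cortistatin A and 5.59, 5.53 and 5.59 in DMSO. The groups did not overlap, and the log2 difference of -0.31 ± 0.06 (95% interval -0.45 to -0.18), or 1.24-fold, did not pass the threshold over all genes. It passed in 4 of 17 alternatives, among them without dim genes and with trend and robust variances, both at the same difference. Averaged over its probe sets the difference was -0.15 and did not pass. The other PELI2 probe set was dim and overlapped between the groups, at 0.01. PELI3, the third Pellino gene, stood at 0.15 ± 0.10 (limma adjusted p = 0.589) and is no member of the 10.

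SLC15A4, a transporter of histidine and peptides in the endolysosome that is needed for signalling from the Toll-like receptors there, rose. It read 8.61, 8.59 and 8.62 in cortistatin A and 7.92, 7.96 and 7.99 in DMSO. The spread within each group was small beside the gap between the groups. The means were 8.60 ± 0.02 in cortistatin A and 7.95 ± 0.03 in DMSO (SD, n = 3 each), a log2 difference of 0.65 ± 0.05 (95% interval 0.54 to 0.76) or 1.57-fold. A second bright probe set read 7.99, 8.02 and 8.01 in cortistatin A and 7.32, 7.44 and 7.39 in DMSO. It gave nearly the same difference, 0.62. The third probe set was dim and overlapped between the groups, at 0.16. SLC15A4 was the only one of the 3 called genes for which 2 bright probe sets annotated to the gene alone gave the same direction, since TIFAB has 1 such probe set and the others of PELI1 were dim.

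**Figure D2:**
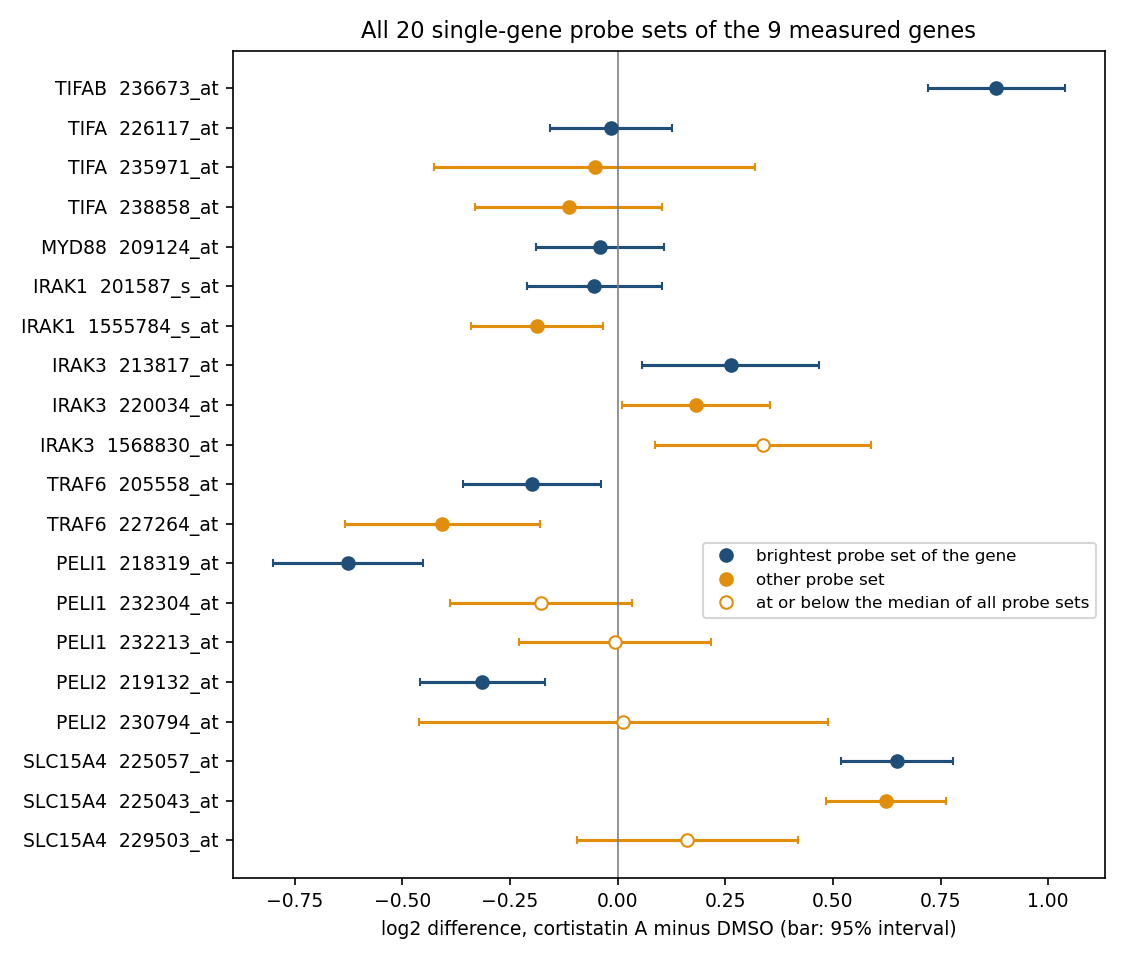
Log2 difference of cortistatin A minus DMSO (horizontal axis, bars are 95% limma intervals from the fit over all 41091 single-gene probe sets, a little wider than those of the gene fit) for the 20 probe sets of the 9 genes. The brightest probe set of a gene is blue, others are orange and dim ones hollow. For each of SLC15A4, TRAF6, IRAK3, TIFA and IRAK1 the bright probe sets lie on the same side of 0. The dim probe sets of PELI1 and PELI2 lie nearer to 0 than the brightest one of the same gene, which for PELI1 is itself close to the median.

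Over the 20 probe sets of the 9 genes, limma fitted on all 41091 single-gene probe sets called 4, beside 0.18% of all probe sets. They were the probe set of TIFAB, both bright ones of SLC15A4 and the bright one of PELI1. The groups did not overlap for 11 of the 20, beside 17.6% of all probe sets. Of the 11 probe sets that were not the brightest of their gene, 6 were above the median of all probe sets and 5 were dim.

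The 250 bases before the annotated start are shown for the 3 called genes, and whether they bear on the differences was not tested. The sequences are from RefSeq (GRCh38.p14), run 5′ to 3′ in the sense of the gene, and lie at chr5:135452352-135452601, chr12:128823959-128824208 and chr2:64144421-64144670, all on the minus strand. Capitals mark matches to the searched motifs.
TIFAB: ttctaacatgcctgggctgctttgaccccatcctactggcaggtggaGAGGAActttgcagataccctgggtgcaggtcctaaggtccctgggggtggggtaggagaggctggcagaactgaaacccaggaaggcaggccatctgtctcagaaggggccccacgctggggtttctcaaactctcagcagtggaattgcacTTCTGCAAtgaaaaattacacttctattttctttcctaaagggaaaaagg
SLC15A4: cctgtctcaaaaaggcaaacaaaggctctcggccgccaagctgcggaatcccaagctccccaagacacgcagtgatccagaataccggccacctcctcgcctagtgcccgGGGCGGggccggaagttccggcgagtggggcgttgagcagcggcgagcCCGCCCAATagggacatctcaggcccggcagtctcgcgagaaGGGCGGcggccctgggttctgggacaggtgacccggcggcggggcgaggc
PELI1: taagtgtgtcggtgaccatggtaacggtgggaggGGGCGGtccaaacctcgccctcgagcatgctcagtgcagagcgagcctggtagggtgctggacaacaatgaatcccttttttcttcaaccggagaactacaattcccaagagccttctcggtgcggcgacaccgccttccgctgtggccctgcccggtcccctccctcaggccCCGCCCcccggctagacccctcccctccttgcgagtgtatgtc

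The motifs were searched on both strands in 35114 RefSeq promoters of that length, of which all 10 genes had 1. They were GAGGAA (the core bound by the myeloid factor PU.1, in 23.6% of promoters), TTGCNNAA (C/EBP factors, 9.05%), TGANTCA (AP-1, 6.57%), CCAAT (NF-Y, 32.0%), GGGCGG (SP factors, 42.6%) and the NF-kB consensus (9.96%). The window of TIFAB held 1 GAGGAA and 1 TTGCNNAA, which lay on the opposite strand 50 to 43 bases before the start. That of SLC15A4 held 3 GGGCGG and 1 CCAAT, which overlaps the middle GGGCGG, and that of PELI1 held 2 GGGCGG. TIFAB was the only one of the 10 genes without a GGGCGG. It also had 52.4% G and C and 1 CpG, against 68.4% and 24 CpG for SLC15A4 and 62.4% and 16 CpG for PELI1. Among all promoters the median was 58.0% and 11 CpG, and 6.05% had fewer CpG than TIFAB. The NF-kB consensus was found in the windows of IRAK1 and PELI2, GAGGAA also in those of TIFA and MYD88, and TGANTCA in none of the 10. A match is a stretch of letters and not a measured binding site, and the motifs were chosen with the results known.

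**Figure D3:**
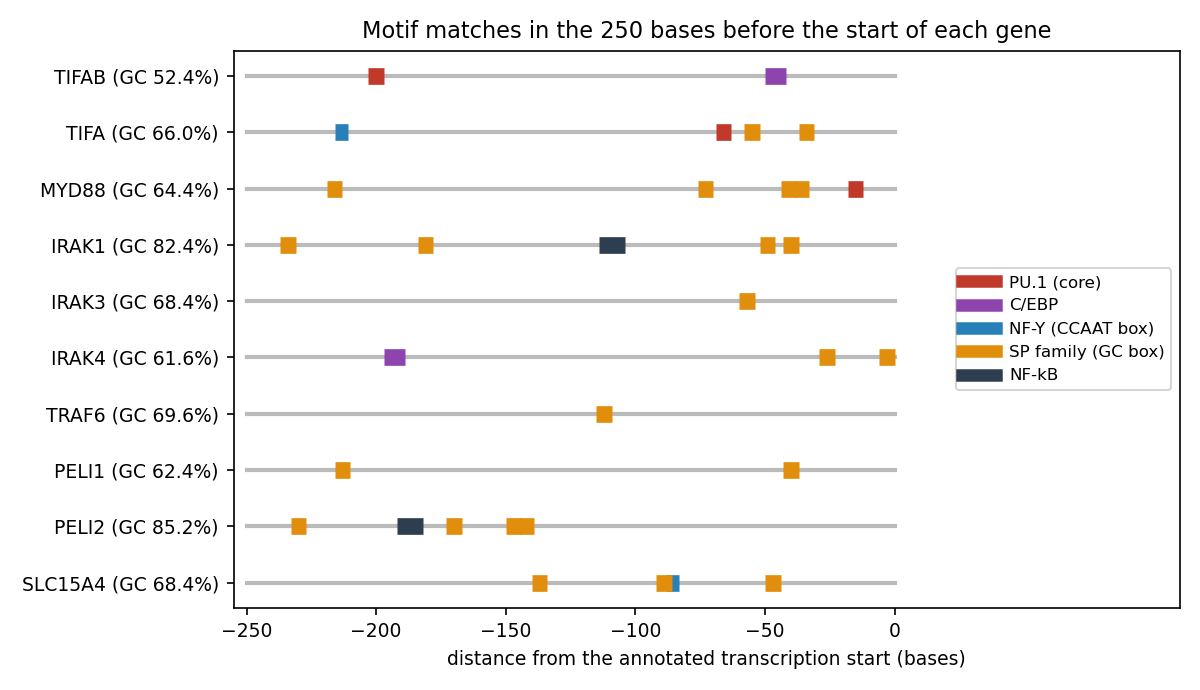
Positions of motif matches (coloured blocks) in the 250 bases before the annotated start of the 10 genes, with the distance from the start in bases on the horizontal axis and the share of G and C beside each name. TIFAB has a match to the PU.1 core and one to the C/EBP motif and none to GGGCGG, which the other 9 windows hold.

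Around the 9 genes, 9 lists with 89 genes of the same route were examined, of which 79 were measured. Limma called 2 of these 79, 1 higher and 1 lower, beside 0.582% of all genes (0.445% higher and 0.137% lower). The lists were chosen with earlier results of these data known, so nothing is read from that count. The median log2 difference was -0.0036, beside 0.0065 for all genes. The groups did not overlap for 23 of the 79 (29.1%), beside 19.4% of all genes.

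Of 19 Toll-like and interleukin-1 family receptors and co-receptors 1 rose and 18 did not pass, with a median of 0.07. Centring on the housekeeping level, which follows TFRC alone and moves every difference by -0.165, gave a median of -0.09. Centring on the median deviation of the housekeeping genes gave 0.07. CD180, a receptor with the extracellular build of a Toll-like receptor, rose by 0.73 ± 0.05 on the log2 scale (limma adjusted p = 0.00838, n = 3 arrays per group). It was not called with any 1 array left out (adjusted p 0.0597 to 0.0845) or with the replicate block. TLR4, the lipopolysaccharide receptor, stood at 0.43 ± 0.06 (limma adjusted p = 0.0541), and at 0.23 without the _x_at and _s_at probe set types (limma adjusted p = 0.413). Only 8 of these 19 genes were not dim.

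Among the TIR adaptors, IRAK2, the TRAF group, the TAK1 and IKK complexes and the inhibitors, no gene passed the threshold over all genes. None of the 3 measured TIR-domain adaptors passed, and TICAM1, TIRAP and SARM1 lay between -0.06 and 0.02. IRAK2, the kinase that can take the place of IRAK1, was at -0.10 ± 0.11 (limma adjusted p = 0.781). Of 10 measured TRAF proteins, Pellino, ubiquitin-conjugating and linear-chain enzymes 0 passed by limma. Of these 10, 3 had an unadjusted p under 0.05, beside 12.6% of all genes. TRAF5 was dim and stood at -0.40 ± 0.09 (limma adjusted p = 0.166), and RNF31, the catalytic subunit of the linear ubiquitin chain complex, at 0.17 ± 0.05 (limma adjusted p = 0.259). Of 7 genes of the TAK1 and IKK complexes 0 passed by limma and 0 had an unadjusted p under 0.05, with differences from -0.09 for MAP3K7, the TAK1 kinase, to 0.10 for IKBKG, the regulatory IKK subunit. Of 11 inhibitors and deubiquitinases 0 passed by limma, and 2 had an unadjusted p under 0.05, beside 12.6% of all genes. These 2 were TANK, which binds TRAF proteins, at -0.42 ± 0.11 (limma adjusted p = 0.211) and the ubiquitin editor TNFAIP3 at 0.21 ± 0.06 (limma adjusted p = 0.223). Averaged over every probe set, TRAF5 was at -0.24 (limma adjusted p = 0.616) and TANK at -0.25 (limma adjusted p = 0.297).

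ALPK1, the kinase upstream of TIFA, was not analysed here. Of the 4 measured genes of the NOD sensors and their partners, RIPK2, the kinase that NOD1 and NOD2 engage, fell. It read 7.33, 7.30 and 7.27 in cortistatin A and 7.64, 7.64 and 7.66 in DMSO. The log2 difference was -0.35 ± 0.05 (limma adjusted p = 0.0377, n = 3 arrays per group), and XIAP, a ubiquitin ligase of that route, stood at -0.28 ± 0.06 (limma adjusted p = 0.144). Averaged over every probe set, XIAP was at -0.09 (limma adjusted p = 0.518). Without the _x_at and _s_at probe set types it was at -0.16 (limma adjusted p = 0.373). A second bright probe set of RIPK2 read 6.04, 5.61 and 5.90 in cortistatin A and 6.06, 5.97 and 6.04 in DMSO. It overlapped between the groups, at -0.17, and with the mean of both probe sets the call of RIPK2 ended (-0.26, limma adjusted p = 0.226). The call also ended without the _x_at and _s_at probe set types, with the control covariate and with the replicate block. It ended too with centring on the median deviation of the housekeeping genes and with any 1 array left out. Where it ended the limma adjusted p was 0.0535 to 0.627, and over its 16 alternatives 0.00038 to 0.627.

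Around SLC15A4, 0 of 8 genes of the endolysosomal Toll-like receptor route passed by limma. An unadjusted p under 0.05 was found for 3 of them, beside 12.6% of all genes. TASL, the adaptor that SLC15A4 holds and that brings in the transcription factor IRF5, read 9.51, 9.39 and 9.62 in cortistatin A and 9.88, 9.99 and 10.00 in DMSO. Its groups did not overlap, and the log2 difference of -0.45 ± 0.07 (limma adjusted p = 0.0720) lay opposite to that of SLC15A4. TASL had limma adjusted p between 9.05e-05 and 0.244 in its 15 alternatives, with differences of -0.61 to -0.39, and it was measured by 1 probe set of a cross-hybridising type. IRF5 stood at 0.19 ± 0.06 (limma adjusted p = 0.284).

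Of 16 NF-kB subunits, feedback genes and cytokines 0 passed by limma, and 4 had an unadjusted p under 0.05, beside 12.6% of all genes. TNF stood at 0.30 ± 0.06 (limma adjusted p = 0.109) and NFKBIA, the inhibitor that NF-kB induces, at -0.29 ± 0.06 (limma adjusted p = 0.146), in opposite directions. With centring on the housekeeping level, which moves every difference by -0.165, TNF was at 0.14 (limma adjusted p = 0.161). Over its 15 alternatives TNF had limma adjusted p between 0.022 and 0.299. Without the _x_at and _s_at probe set types NFKBIA was at 0.02. The median of this list was -0.01.

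**Figure D4:**
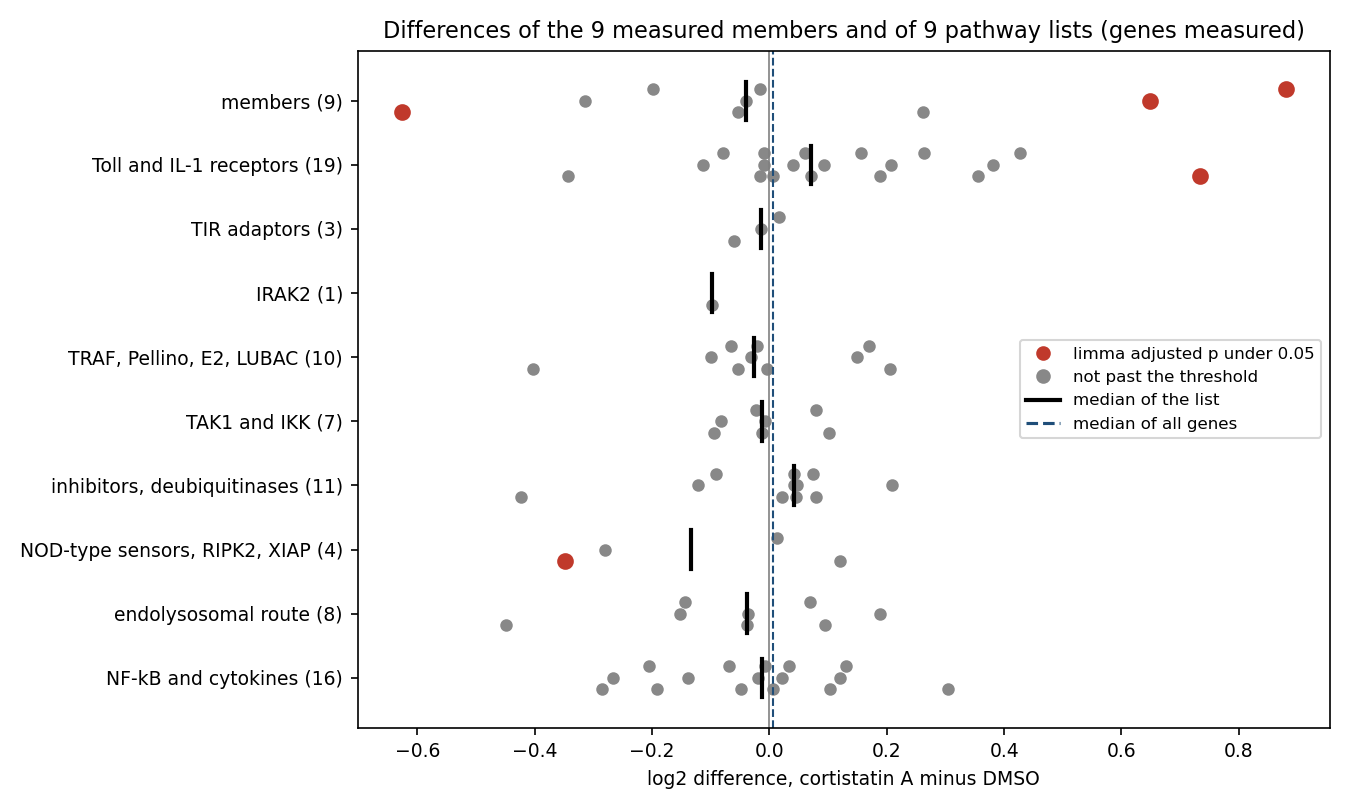
Log2 difference of cortistatin A minus DMSO (horizontal axis) for the 9 measured genes in the top row and for the genes of the 9 pathway lists below, each point a gene, with the number measured in parentheses. Red points passed a limma adjusted p under 0.05, which in the lists were CD180 (0.73) and RIPK2 (-0.35), and the medians (black) lie between -0.13 and 0.07.

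Among the other 12650 genes that were not dim, the 4 whose levels followed those of TIFAB most closely over the 6 arrays were SUSD1, FLT4, OPN3 and CD180, with Pearson r of 0.998, 0.997, 0.997 and 0.997. Their log2 differences were 0.40, 0.18, 0.28 and 0.73. For PELI1 the closest were MMGT1, SFXN3, GLCCI1 and ERI1, with Pearson r of 0.997, 0.995, 0.994 and 0.994 and log2 differences of -0.13, -0.09, -0.44 and -0.19. Within the 9 genes TIFAB and SLC15A4 correlated at 0.995, PELI1 and PELI2 at 0.983 and TIFAB and PELI1 at -0.972. These values describe 6 arrays that fall into the cortistatin A and DMSO groups, so any genes that separate the groups with little spread correlate highly.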

How the data were processed

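Single-colour Affymetrix Human U133 Plus arrays of 6 wells were analysed. The deposited table holds 1 log2 value per probe set and array, and per the submitters' processing notes RMA and the affy package were used, without versions; the scale was taken as log2 from the range of values. RNA isolation differed (column or TRIzol, per the labels' protocols) in a way not given per array. Of 54675 probe sets, 62 were controls, 41091 named 1 gene, 1801 several and 11721 none per the platform table. The gene identifiers of 41037 single-gene probe sets were found in RefSeq, and the RefSeq symbol was used for these.

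Groups were compared with limma 3.58.1 in R 4.3.3 (lmFit, eBayes, two-sided, Benjamini-Hochberg over 19775 genes, threshold 0.05, 4 residual and 2.68 prior degrees of freedom). The fit was tested on simulated data. The members and lists were chosen with earlier results of these data known. Named were all members, every list gene past the threshold, the 2 smallest p per list and the 4 genes most correlated with TIFAB and with PELI1. Same-numbered arrays did not deviate together (r = -0.0548, 0.00946 and 0.0161), so numbers were not treated as pairs. No sequencing depth applies; the number of arrays limits precision.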

Additional observations from a re-analysis of the deposited data

How the results depend on the processing

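TIFAB, PELI1, SLC15A4, PELI2, TRAF6, IRAK1, IRAK3 and MYD88 kept their sign under all alternatives run, while TIFA turned to 0.01 and 0.0049 when single arrays were left out. The 115 genes called became 321 without dim genes, 76 when the probe sets of each gene were averaged, 54 without the _x_at and _s_at types, 74 with every probe set tested, 4040 with centring on the housekeeping level, 762 with trend and robust variances, 9 with the 3' to 5' covariate and 260 at an adjusted p under 0.1. With the replicate block limma called 0 genes, 2243 having an unadjusted p under 0.05, and 0 of the 9 measured members, of which 6 had one. The 3 members called became 6 with centring on the housekeeping level, which follows TFRC alone and called 4040 of all genes. They became 5 with trend and robust variances, which called 762 of all genes, and 4 without dim genes and at an adjusted p under 0.1. With averaged probe sets and with the 3' to 5' covariate they became 2, TIFAB and SLC15A4, without PELI1. With 1 array left out 0 to 4 genes and 0 to 1 members were called, and the difference of TIFA ranged from -0.038 to 0.014. Fewer residual degrees of freedom come with the block, the covariate and a left-out array; other causes were not tested. Centring on the median deviation of the housekeeping genes, an alternative chosen after seeing the data, gave 108 genes and 3 members. Dim probe sets limit what can be said of PELI1.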
